A study of Equus caballus with 24 samples.

Results

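The genes described here were present in horse skin, had nearly disappeared from at least 6 of 12 equine sarcoids, and stayed above 50% of their skin level in at least 1 tumour. They numbered 73, out of 14930 genes that passed the filter on low counts and 30371 gene IDs in the count tables. The members were chosen by their measured levels in CPM (a gene's reads relative to the composition-scaled library total). The skin reference of a gene is its median CPM over 11 of the 12 skin libraries, all except skin 9. A member had a skin reference of at least 10 CPM, was at or below 6.25% of it in at least 6 of 12 sarcoids, and was above 50% of it in at least 1 sarcoid. A gene at or below 6.25% of its skin reference in a library is called lost there, and a gene above 50% is called kept. Both words describe a level and are not the outcome of a test.

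The libraries are bulk RNA of 12 pieces of horse (Equus caballus) tumour tissue, the sarcoids, and 12 pieces of horse skin tissue as controls. No treatment, age, breed or body site is given for either group, and nothing says that the pieces came from separate animals, so a p-value measures the spread between these pieces. Each library goes by its tissue and its title's number. A letter L follows the number in 4 sarcoid titles (65L, 67L, 71L and 74L) and is not explained in the labels.

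The equine sarcoid is a fibroblastic tumour of the skin of horses that is associated with bovine papillomaviruses. Normal skin is layered, with keratinocytes of the epidermis and hair follicles, gland cells, pigment cells, vessels, nerves, fat and muscle around the fibroblasts of the dermis. In bulk RNA from such tissue, fewer cells of a type and less RNA per cell cannot be told apart. Symbols are not paired with the gene IDs in the files, and a table of 39335 horse genes matched 0 of them. The members therefore have no names here, their functions are not described, and the tissue labels could not be checked against marker genes. IDs are printed for 4 members taken by a rule, the 2 with the highest skin reference and the 2 with the highest sarcoid level relative to the skin reference. Other members are described by their rank or by their set.

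Depth ranged from 9673480 to 31769803 gene counts per library. For a gene at the lowest skin reference, the limit of 6.25% corresponded to between 3.39 counts (sarcoid 4) and 9.64 counts (sarcoid 2) among the sarcoids, so loss was countable in each tumour but rests on few reads for the lowest members. Among the skin libraries number 9 stood apart, as described beside the results it touches. Sarcoid 4 had 23.9% of its reads counted as not unique, where the other libraries had 2.26% to 8.81%, and its part in the losses was not tested. Reads of near-identical or overlapping genes may be missing from or shared between these counts, and no member could be checked for this.

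The tumours fell far apart in how many of the 73 members they kept. Sarcoid 6 kept 46 members and sarcoid 2 kept 35. Sarcoid 11 kept 10, sarcoid 10 kept 9, sarcoid 67L kept 2 and sarcoid 65L kept 1. The other 6 sarcoids, 71L, 74L, 3, 4, 9 and 12, kept 0. Of the 103 kept values among the 876 pairs of a member and a sarcoid, 81 (78.6%) lay in sarcoids 2 and 6.

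Loss was near complete in 6 tumours. The rule asks for at least 6 lost sarcoids, so losses of this extent are largely built in and nothing is read from them. Of all 8670 genes with a skin reference of at least 10 CPM, these tumours lost 3.81% (sarcoid 3) to 6.52% (sarcoid 12). Sarcoids 74L and 4 each lost 72 of the 73 members, sarcoids 9 and 12 lost 70, sarcoid 3 lost 67 and sarcoid 67L lost 66. The median member stood at 0.129% of its skin reference in sarcoid 4, at 0.0758% in sarcoid 9, at 0.292% in sarcoid 12, at 1.36% in sarcoid 67L and at 2.98% in sarcoid 3. In sarcoid 74L the median member had no count. No read was counted for 37 members in sarcoid 74L, for 34 in sarcoid 4, for 34 in sarcoid 9 and for 23 in sarcoid 12. A count of 0 still allows 3 counts, which is 0.196 CPM in sarcoid 74L and 0.553 CPM in sarcoid 4.

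The other tumours lay in between, and they did so in different ways. Sarcoid 10 lost 0 of the 73 members, yet held 64 of them between 6.25% and 50% of the reference, with a median of 26.2%. Sarcoid 11 had nearly the same median, 25.8%, with 14 members lost and 10 kept, so its members were spread more widely. Sarcoid 65L held 61 members in that middle range, with a median of 14.5%. Sarcoid 71L lost 40 members and held 33 in the middle range, with a median of 5.37%. The medians of the tumours that kept most members were 55.5% in sarcoid 6 and 43.9% in sarcoid 2.

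**Figure D1:**
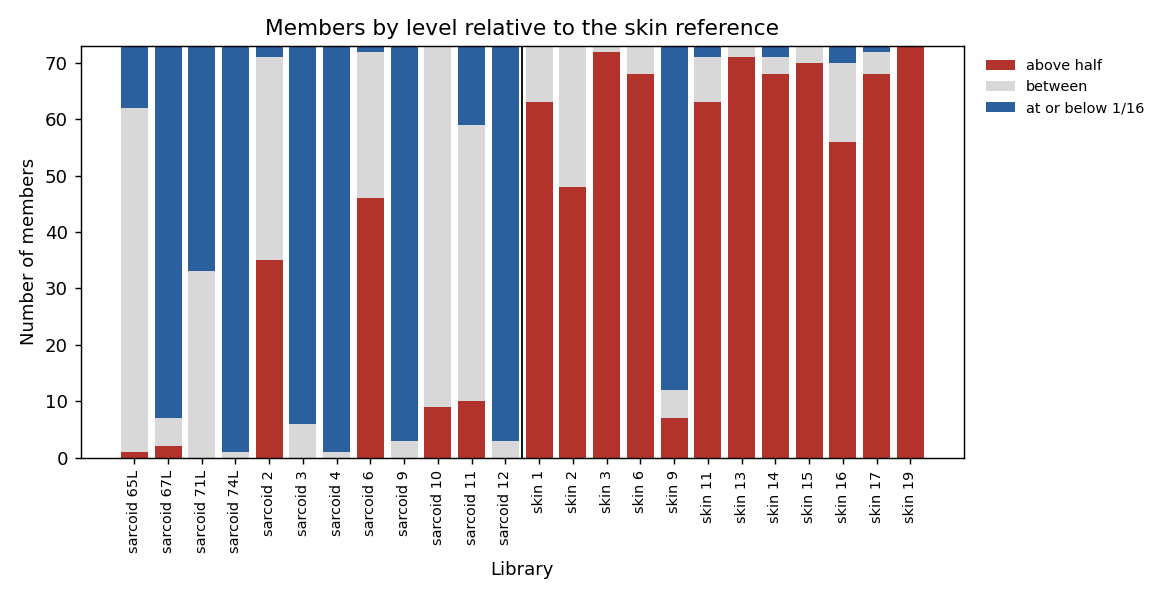
Number of the 73 members (vertical axis) above 50% of the skin reference, at or below 6.25% of it, or between, in each of the 24 libraries (horizontal axis, sarcoids left of the line). Sarcoids 6 and 2 kept 46 and 35 members, sarcoids 74L and 4 lost 72 each, and skin 9 is the skin library with 61 members lost.

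Together the members took 1.13% of the gene counts of sarcoid 6 (95% Wilson interval 1.125 to 1.137) and 0.793% of those of sarcoid 2 (0.788 to 0.799). They took 0.00403% in sarcoid 4 (95% Wilson interval 0.00368 to 0.00441), which is 468 reads. In the 11 skin libraries of the reference the share lay between 1.07% (skin 15, 95% Wilson interval 1.067 to 1.077) and 2.61% (skin 19, 2.605 to 2.622). These intervals cover counting error only. A single member, the one with the highest skin reference, gave 49243 of the 123521 member reads of sarcoid 6.

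Sarcoids 2 and 6 also differed from other sarcoids in library measures, whose part in the kept counts was not tested. Their depths, 9673480 and 10920919 gene counts, were the lowest of the 12 sarcoids, and their numbers of genes with a count, 20832 and 20634, the highest (16956 in sarcoid 4). Their composition factors, 1.60 and 1.36, were the highest of the sarcoids, where sarcoid 4 had 0.468. Scaled by library size alone instead, sarcoid 6 kept 68.5% of the members and sarcoid 2 kept 52.05%, against 63.0% and 47.95% with composition scaling. With all libraries thinned to the smallest, the shares were 63.0% and 46.6%. Reads assigned to no gene made up 35.9% of the total in sarcoid 2 and 32.1% in sarcoid 6, the highest of the 12 sarcoids. Sarcoid 10 came next at 29.4%, and the other sarcoids had 8.11% to 26.5%. The 11 skin libraries of the reference had 19.2% to 35.6%, and skin 9 had 25.4%.

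Since all 12 sarcoids entered the rule, each tumour was also looked at with the members found without it. Sarcoid 6 kept 24 of the 51 genes found this way (47.1%), and sarcoid 2 kept 15 of 53 (28.3%). Sarcoid 11 kept 10 of 72 and sarcoid 10 kept 7 of 71. Sarcoid 65L kept 1 of 70 and sarcoid 67L kept 1 of 38. No gene of such a set was kept in sarcoid 71L (of 62), 74L (of 32), 3 (of 37), 4 (of 32), 9 (of 34) or 12 (of 33). So the order of the tumours was alike in values that the rule had not used, with lower shares in the tumours that kept most. Each tumour had its own set of 32 to 72 genes, so these shares are not of the same genes. The order was also similar over all 8670 genes with a skin reference of at least 10 CPM, so it is not particular to the members. Of these genes sarcoid 6 kept 91.3%, sarcoid 2 88.1%, sarcoid 11 86.4% and sarcoid 10 86.3%. Sarcoid 65L kept 85.8% and sarcoid 67L 84.2%, and the rest lay between 74.95% (sarcoid 4) and 83.2% (sarcoid 9).

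In the skin libraries treated in the same way, between 62.2% (skin 2) and 98.6% (skin 19) of the genes were kept in the 11 libraries of the reference. Skin 9 was the exception. It entered no reference, and it kept 7 of the 73 members (9.59%) and lost 61 (83.6%), where it lost 5.08% of all 8670 genes at 10 CPM or more. The median member stood at 0.527% of the reference in skin 9, in the range of the 6 tumours with most losses. Skin 9 had 28418891 gene counts, and 0 reads for 11 members. This depth is above the median of the other skin libraries, 13699037. Whether its label is right was not tested.

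Most members were kept by few tumours. Of the 73, 45 were kept in 1 sarcoid, 26 in 2 and 2 in 3. At the other end, 41 members were lost in 6 sarcoids, 18 in 7, 13 in 8 and 1 in 9. Only 13 members stood above the skin reference itself in any sarcoid, 7 of them in sarcoid 6, 3 in sarcoid 10, 2 in sarcoid 11, 1 in sarcoid 2 and 1 in sarcoid 67L, with 1 member counted in 2 tumours. In 64 members the highest sarcoid lay above the lowest of the 11 skin libraries. In the other 9, every sarcoid lay below all 11, as it did in 5.25% of all 14930 genes. With skin 9 counted as well, 0 of the 73 members had every sarcoid below every skin library, against 1.61% of all genes. The rule used these levels, so nothing is read from either count.

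The members differed in which tumour kept them, and 2 sets stand out in the counts. A set of 34 members was kept in sarcoid 6 and not in sarcoid 2, and a set of 23 was kept in sarcoid 2 and not in sarcoid 6. Another 12 were kept in both and 4 in neither. These sets were formed after the values had been seen, so their levels in sarcoids 2 and 6 are a description. In the first set the median was 68.7% of the skin reference in sarcoid 6 and 28.1% in sarcoid 2. In the second it was 25.4% in sarcoid 6 and 59.7% in sarcoid 2. Across the 73 members the relative levels of sarcoids 2 and 6 had a Pearson correlation of -0.16 (log2 scale, with a shared reference, across genes). The rule asks for at least 1 kept tumour, and 69 of the 73 members were kept in sarcoid 2 or 6. Genes low in both are thus mostly absent, and nothing is read from the sign. In sarcoid 2 only 1 of the 34 was lost, and in sarcoid 6 only 1 of the 23.

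**Figure D2:**
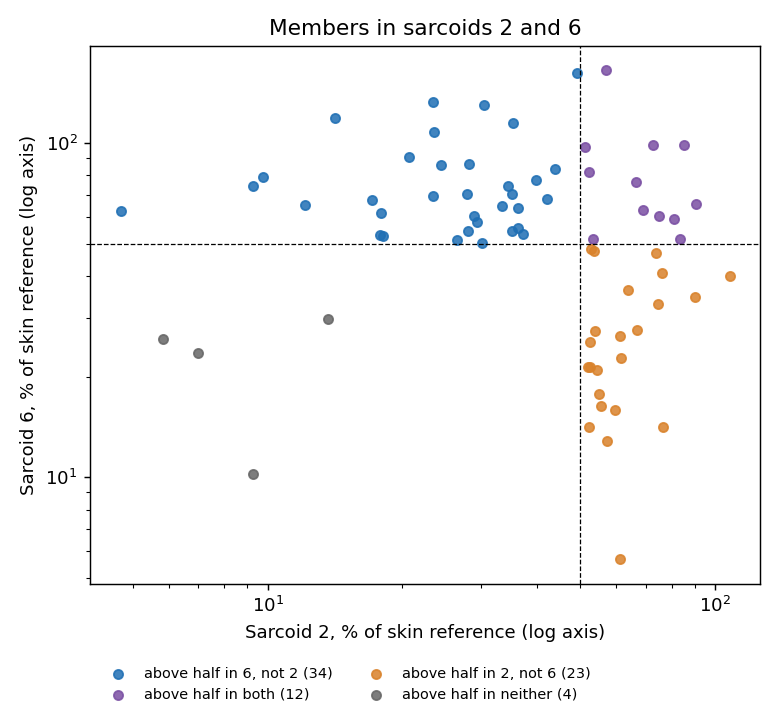
Level of each of the 73 members in sarcoid 2 (horizontal axis) and sarcoid 6 (vertical axis), in percent of its skin reference on log axes, with dashed lines at 50%. The 34 members kept in sarcoid 6 alone of the pair and the 23 kept in sarcoid 2 alone lie on either side, with 12 kept in both.

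The 2 sets also stood at unequal levels in some other tumours. The losses that the rule asks for lie mostly outside sarcoids 2 and 6, so the values of the other tumours helped to choose the members and are given as a description. Of the 73 members, sarcoid 11 lost 14, sarcoid 71L lost 40 and sarcoid 3 lost 67. In sarcoid 11 the median was 35.4% of the skin reference for the set kept in sarcoid 6 and 4.04% for the set kept in sarcoid 2, a ratio of 8.76, and 33 of the 34 members of the first set lay above the median of the second. In sarcoid 71L the medians were 8.52% and 1.56%, a ratio of 5.46, with 30 of 34 above. In sarcoid 3 they were 3.20% and 1.10%, with 30 of 34 above, although both sets were nearly all lost there (32 of 34 and 21 of 23). Scaled by library size alone, the medians in sarcoid 11 were 22.95% and 1.87%. Sarcoids 11 and 71L thus held the first set at a higher share than the second, below the level of sarcoid 6. The sets also differed in skin level, with a median skin reference of 46.25 CPM for the first and 26.9 CPM for the second. In sarcoid 71L the second set lay between 0 and 5.35 CPM, where 3 counts are 0.24 CPM. Its median there thus rests on few reads.

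Other tumours held both sets at like levels. Sarcoid 10 had medians of 27.2% and 22.1%, and sarcoid 65L had 13.3% for the set kept in sarcoid 6 and 16.8% for the set kept in sarcoid 2. Across all 73 members, sarcoid 11 had a Pearson correlation of 0.76 with sarcoid 6, of 0.71 with sarcoid 71L and of -0.28 with sarcoid 2. Sarcoid 2 and sarcoid 10 had -0.39. These coefficients are across genes that share a reference, and genes are not independent replicates. The rule's choice of members also enters them, so nothing is read from their sign.

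The 2 sets also differed among skin libraries, where the rule had used only the median. Skin 1 held the set kept in sarcoid 6 at a median of 76.9% of the reference and the set kept in sarcoid 2 at 128%. Skin 6 held them at 92.1% and 152%. The order was the other way in skin 15, at 145% and 95.01%, and in skin 19, at 140% and 100%. In skin 3 both medians were close, 112% and 113%. The largest ratio between the sets among the 11 skin libraries was 1.66, in skin 1. Each gene is divided by its median over these 11 libraries, which draws the set medians in them towards 100%. Nothing is therefore read from setting this ratio beside those in the sarcoids. In skin 9, outside the reference, both sets were nearly all lost, 29 of 34 and 21 of 23, with medians of 0.24% and 0.72%.

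**Figure D3:**
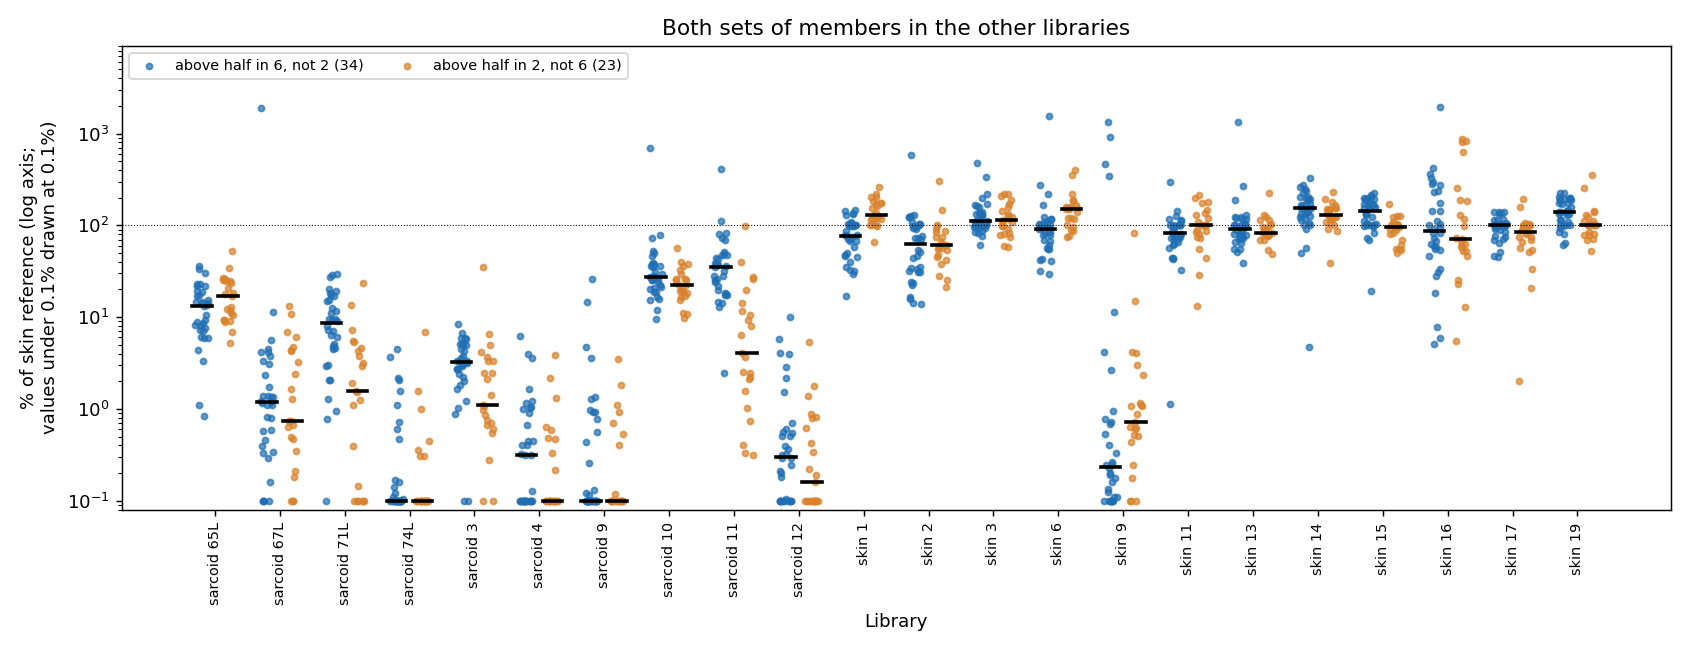
Level of the 34 members kept in sarcoid 6 and not 2 (blue) and of the 23 kept in sarcoid 2 and not 6 (orange) in the other 22 libraries, in percent of the skin reference on a log axis, 1 point per member with the median as a bar. Sarcoid 11 holds the blue set at 35.4% and the orange set at 4.04%, while sarcoids 10 and 65L hold both at like levels.

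The levels behind the sets can be followed in single members. ENSECAG00000022233 had the highest skin reference of the 73, at 4903 CPM, with 2617 to 17940 CPM in the 11 skin libraries. It stood at 3570 CPM in sarcoid 11 and 3331 CPM in sarcoid 6, both above 50% of the reference. Sarcoid 2 had 2063 CPM, 42.1% of the reference, and sarcoid 10 had 1928 CPM, 39.3% of it. The gene reached 953 CPM in sarcoid 65L and 851 CPM in sarcoid 71L.

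In the other 6 sarcoids ENSECAG00000022233 was lost. The values were 292 CPM in sarcoid 3, 200 CPM in sarcoid 12, 116 CPM in sarcoid 67L, 49.6 CPM in sarcoid 4, 35.6 CPM in sarcoid 74L and 5.66 CPM in sarcoid 9, a span of 631-fold among the tumours. Skin 9 had 9.82 CPM, lower than 11 of the sarcoids. Only sarcoids 6 and 11 overlapped with the 11 skin libraries. The mean was 1116 ± 1302 CPM in sarcoid and 6933 ± 4719 CPM in those skin libraries (SD, n = 12 and 11).

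ENSECAG00000000651 came next, with a skin reference of 978 CPM and 651 to 3994 CPM in the 11 skin libraries. It was kept in sarcoid 6, at 962 CPM, and in sarcoid 2, at 836 CPM. Sarcoid 11 had 460 CPM, sarcoid 10 had 404 CPM, sarcoid 65L had 210 CPM and sarcoid 71L had 73.0 CPM. The gene was thus at its skin level in 2 tumours and graded below it in 4.

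The same gene, ENSECAG00000000651, was lost in the remaining sarcoids, at 58.8 CPM in sarcoid 3, 29.6 CPM in sarcoid 67L, 3.69 CPM in sarcoid 4, 2.39 CPM in sarcoid 12, 0.809 CPM in sarcoid 9 and 0.392 CPM in sarcoid 74L. Skin 9 had 2.19 CPM. The tumours spanned 2450-fold, and sarcoids 2 and 6 alone overlapped with the 11 skin libraries. The means were 253 ± 341 CPM in sarcoid and 1220 ± 940 CPM in the 11 skin libraries (SD, n = 12 and 11).

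The sixth member by skin reference shows the set kept in sarcoid 2. Its skin reference was 343 CPM, and it stood at 180 CPM in sarcoid 2, 73.1 CPM in sarcoid 6, 62.5 CPM in sarcoid 10 and 31.9 CPM in sarcoid 65L. In sarcoid 11 it was at 12.6 CPM, already lost, and the other 7 tumours had 0.404 to 5.35 CPM. The third member by skin reference, at 860 CPM in skin, gave the other picture, with 743 CPM in sarcoid 6, 432 CPM in sarcoid 10, 242 CPM in sarcoid 2 and 171 CPM in sarcoid 11. Sarcoid 6 was thus the highest tumour in one and sarcoid 2 in the other, while both members were lost in sarcoids 3, 4, 9, 12, 67L, 71L and 74L. Sarcoid 65L had lost the third member as well, at 37.8 CPM.

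A small group of members went another way, with a high level in skin 9. Among the 7 members kept in skin 9, 6 lay at least 2-fold above the skin reference there, at 341.8% to 1329% of it. In 5 of the 7 the highest tumour was sarcoid 10, which had the highest level in only 6 of all 73 members. The eleventh member by skin reference is an example. It had 1010 CPM in skin 9 against 87.9 to 490 CPM in the 11 other skin libraries, and 285 CPM in sarcoid 10 and 111 CPM in sarcoid 11, while the other 10 sarcoids lay between 4.29 and 50.5 CPM. This overlap of skin 9 and sarcoid 10 was noticed after the values were seen and has no test.

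ENSECAG00000010454 belongs to the same group and had the second highest sarcoid level relative to skin, 6.97 times its skin reference of 23.5 CPM. It stood at 164 CPM in sarcoid 10, 14.75 CPM in sarcoid 6, 10.01 CPM in sarcoid 11 and 6.06 CPM in sarcoid 9. The other sarcoids had 1.48 CPM (sarcoid 4), 1.36 CPM (sarcoid 12), 1.10 CPM (sarcoid 2), 0.261 CPM (sarcoid 74L), 0.257 CPM (sarcoid 65L) and 0.0933 CPM (sarcoid 67L), and no read was counted in sarcoids 71L and 3. One tumour therefore lay above every skin library, and 7 were lost.

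The skin libraries of ENSECAG00000010454 were themselves spread, from 4.35 CPM in skin 16 to 69.0 CPM in skin 11, with 110 CPM in skin 9. The mean was 23.8 ± 17.3 CPM in the 11 skin libraries (SD, n = 11) and 16.6 ± 46.6 CPM in sarcoid (SD, n = 12), where the sarcoid mean comes mostly from sarcoid 10.

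ENSECAG00000003774 had the highest sarcoid level relative to skin, 19.1 times a skin reference of 10.3 CPM, close to the lowest allowed. Sarcoid 67L held 197 CPM of it (2108 reads), while sarcoid 6 had 5.28 CPM, sarcoid 2 had 2.72 CPM, sarcoid 10 had 2.08 CPM, sarcoid 11 had 1.88 CPM and sarcoid 9 had 1.52 CPM. Sarcoids 4, 65L and 71L had 0.369, 0.0856 and 0.0799 CPM, and no read was counted in sarcoids 74L, 3 and 12. Sarcoid 67L, which lost 66 of the 73 members, is thus the highest library for this one.

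Skin was no steadier for ENSECAG00000003774. It reached 161 CPM in skin 6, 139 CPM in skin 13 and 137 CPM in skin 9, and stood at 0.116 CPM in skin 11 and 0.482 CPM in skin 14. The SD of its log2 CPM over the 11 skin libraries, 2.82, was the highest of the 73 members.

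**Figure D4:**
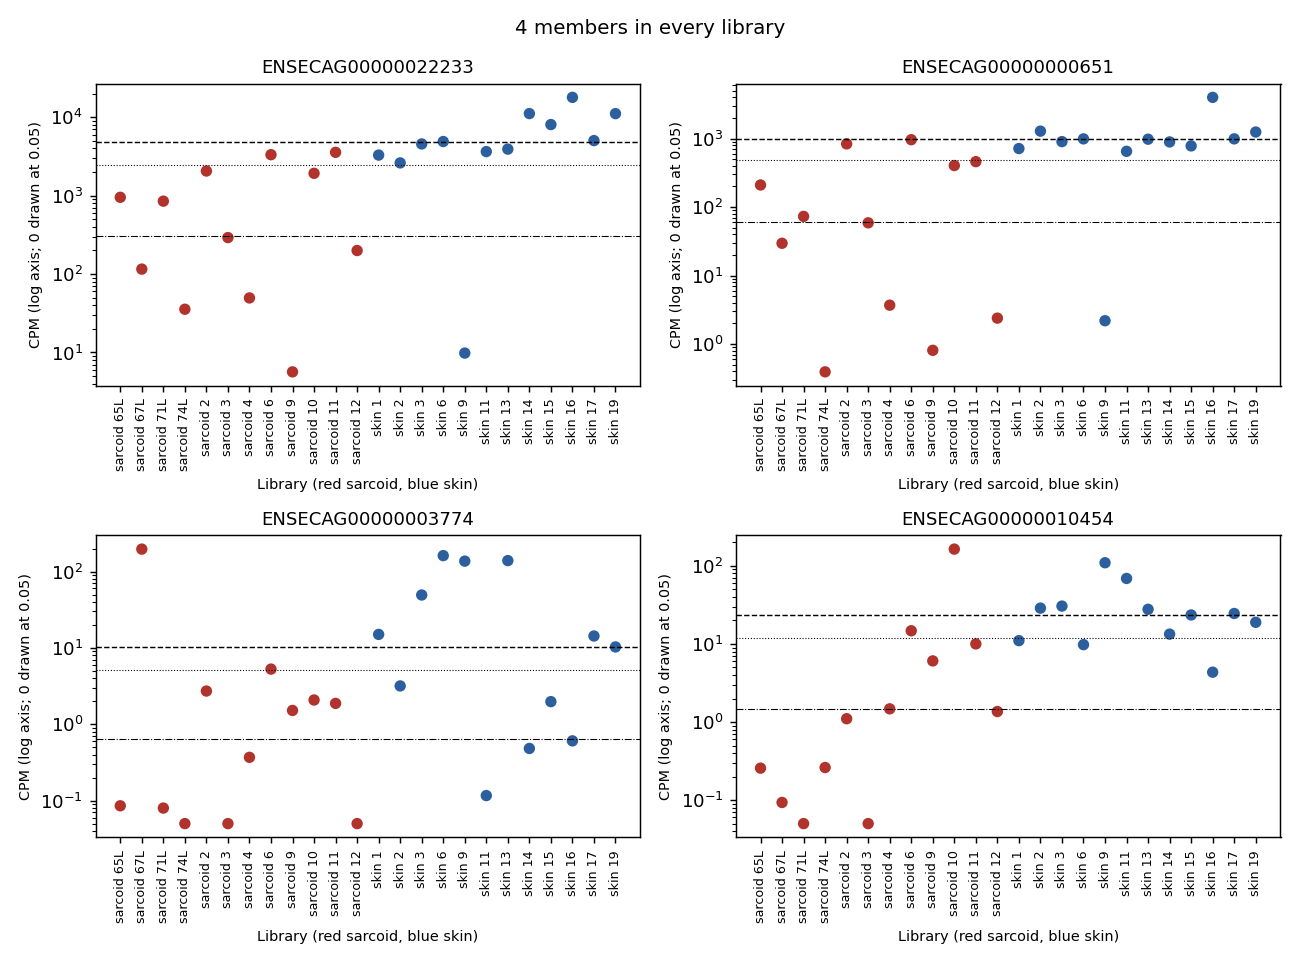
CPM of 4 members (log axis, 0 drawn at 0.05) in each of the 24 libraries (sarcoids red, skin blue), with the skin reference dashed, 50% of it dotted and 6.25% of it dash-dotted. The upper genes grade down through the tumours and are low in skin 9, while the lower genes have 1 tumour above the skin reference, sarcoid 67L at 197 CPM and sarcoid 10 at 164 CPM.

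The tumours in which a gene was high were shared widely for some members and hardly at all for others. Over the 12 sarcoids, 285 of the other genes had a Pearson correlation of at least 0.9 (log2 CPM) with ENSECAG00000000651, and 36 of them were members. For ENSECAG00000022233 there were 90 such genes, 13 of them members. The 2 most alike genes reached 0.991 and 0.990 for the first and 0.971 and 0.964 for the second, and none of these was a member. For ENSECAG00000010454 only 3 genes and for ENSECAG00000003774 only 1 gene reached 0.9, and none was a member. The genes share libraries and depth, and these coefficients carry no test.

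Within skin the members varied more than skin genes at large. The median SD of log2 CPM over the 11 skin libraries was 0.70 for the members, from 0.31 to 2.82, and 0.30 for all 8670 genes with a skin reference of at least 10 CPM. The SD was above 1 in 18 members (24.7%) and in 3.13% of the 8670 genes. The median skin reference of the members was 31.0 CPM, close to the 31.9 CPM of the 8670 genes, and 16 members had at least 100 CPM.

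A nearby list is that of the 190 skin genes lost in at least 6 sarcoids and kept in 0. By construction its members were lower in sarcoids 6 and 2, with medians of 20.2% and 17.8% of the reference. Skin 9, which the rule left out of the skin reference but not out of the filter and the scaling, lost 77.9% of this list and 83.6% of the members. Skin 16, which entered the skin reference, lost 15.8% of the list and kept 41.6%, with a median of 34.9%, while it lost 3 of the 73 members (4.11%) and kept 56 (76.7%), with a median of 91.5%. The median SD over the 11 skin libraries was 0.86 for the list and 0.70 for the members. With the rule applied without skin 16, that library kept 54 of 71 genes (76.1%). No test over genes was made of these differences.

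**Figure D5:**
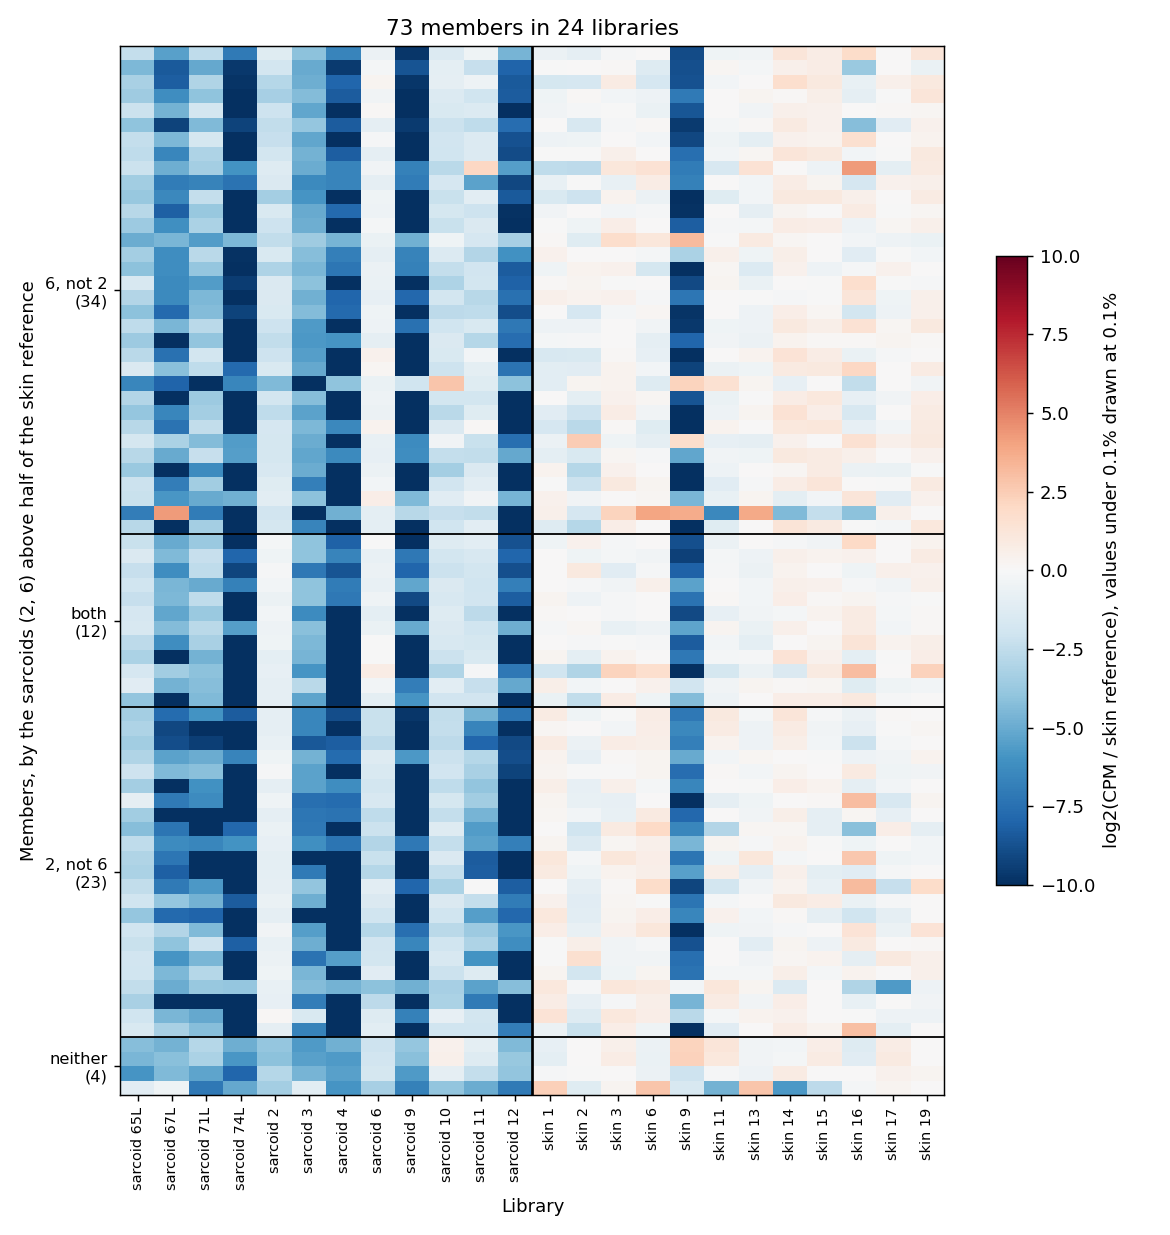
Level of the 73 members (rows, grouped by whether sarcoids 2 and 6 kept them, and by falling skin reference within each group) in the 24 libraries (columns), as log2 of CPM over the skin reference, with red above and blue below it. Sarcoids 74L, 4, 9 and 12 and skin 9 are dark blue in nearly all rows, and the set of 23 rows kept in sarcoid 2 alone of the pair is darker in sarcoid 11 than the set of 34.

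In the comparison of sarcoid with skin over all genes, which asks which genes differ between tumour and normal tissue, 64 of the 73 members were called lower at an adjusted p under 0.05 (edgeR's quasi-likelihood test, Benjamini-Hochberg). Of all 14930 genes 26.3% were called lower. The rule used this contrast, so nothing is read from the count or from the p-values of single members. All 12 skin libraries entered the fit, with skin 9 among them, which lost 61 of the 73 members. The members' log2 fold changes ran from -3.95 to -0.89, with a median of -2.74. Among the 9 members not called was ENSECAG00000000651, at -2.14 ± 0.94 (SE, edgeR adjusted p = 0.0567), and ENSECAG00000022233 was among those called, at -2.51 ± 0.83 (SE, edgeR adjusted p = 0.0136).

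The 4 sarcoids with an L in the title were compared with the 8 without. The rule did not use the letter, but it used the levels in all 12 sarcoids, and 69 of the 73 members were kept in sarcoid 2 or 6, which both lack it. The direction of this contrast in the members is therefore largely set by their choice, and nothing is read from it. No member and no gene was called, 0 of 73 and 0% of 14930, with adjusted p-values tested against 0.05 (edgeR, quasi-likelihood). At an unadjusted p under 0.05, 3 members were lower and 1 higher in the sarcoids with an L, where 4.82% of all genes were lower and 4.37% higher. DESeq2 called 133 genes, 2 of them members, and limma's voom called 0. The members' fitted changes had a median of -1.90 on the log2 scale, with a median SE of 1.5. The 4 tumours that kept most members, sarcoids 6, 2, 11 and 10, have no L, and neither do sarcoids 3, 4, 9 and 12, which kept 0.

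In ENSECAG00000010454 the fitted change, sarcoids with an L against those without, was -7.22 ± 2.18 on the log2 scale (SE, edgeR adjusted p = 0.446), while DESeq2 gave -4.94 (adjusted p = 0.00683). This rests in part on sarcoid 10, without which the edgeR value was -4.91 (adjusted p = 0.628). ENSECAG00000003774 had 4.77 ± 1.63 (SE, edgeR adjusted p = 0.466), which turned to -4.82 without sarcoid 67L (adjusted p = 0.601). Both genes were picked for their highest sarcoid, sarcoid 10 without an L and sarcoid 67L with it. The direction and size of these changes, and the DESeq2 p-value, are thus largely set by the pick, and nothing is read from them.

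Many members lay at the minimum of the rule, 41 with exactly 6 losses and 45 with exactly 1 kept tumour. The lowest skin reference of a member was 10.12 CPM, and the highest among genes that met every other part was 9.95 CPM. The sixth lowest sarcoid stood at up to 6.16% of the reference among members and at 6.27% in the nearest gene outside. The highest sarcoid stood at 50.1% of the reference in the last member inside and at 49.7% in the nearest gene outside. The number of members depends on each limit. With 1 library left out it ran from 33 to 79, and it was 33 without sarcoid 74L, 34 without sarcoid 4, 9 or 12, 38 without sarcoid 3 and 40 without sarcoid 67L, where 6 losses are asked of 11 tumours. Scaling by library size alone gave 163 genes, 71 of them among the 73.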

How the data were processed

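The values are whole-number read counts per gene, deposited by the authors as 1 table per library and not normalized. Per the submitters' processing notes, the tools were TopHat2, HTSeq, FastQC and DESeq2 and the genome build was EquCab3.0. Not given in the sources used here are their versions, the strand setting and the annotation release. The 5 summary rows of each table, 72.6% to 86.6% of its total, were left out. Genes were filtered with filterByExpr and scaled by TMM in edgeR 4.0.16 (R 4.3.3). SDs and correlations used log2(CPM + 0.5). Groups were compared by the quasi-likelihood test of edgeR, with p-values adjusted over all 14930 genes (Benjamini-Hochberg), with DESeq2 1.42.0 and limma 3.58.1 (voom) as alternatives, and the scripts were tested on simulated data. Members found without a tumour kept the scaling of all 24 libraries. Among 276 pairs of libraries the lowest chi-square per degree of freedom was 30.7, so no pair looked like 1 library given under 2 names. The members, the named members' rule (the 2 highest skin references and the 2 highest ratios of a sarcoid to it) and all lists were chosen with earlier results of these data known. Lists of named marker genes could not be used, since the IDs have no names here. Figures were drawn with matplotlib 3.10.9.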

Additional observations from a re-analysis of the deposited data

Results flagged for a closer look

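In the 8 sarcoids without an L, the level of ENSECAG00000010454 in sarcoid 10, 163.9 CPM, lay far from the other 7. In the 4 sarcoids with an L, the level of ENSECAG00000003774 in sarcoid 67L, 196.6 CPM, lay far from the other 3. These were 2 of 12 groups looked at. The chance rate of about 1 in 20 is for normally distributed values of genes picked without regard to them. It is not set against this count. Both genes had been picked for their highest sarcoid, so a high single tumour is built into the choice.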

How the results depend on the processing

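The number of members, 73, moved with the limits of the rule. It was 163 with scaling by library size alone, 48 with a skin reference of at least 20 CPM, 183 with loss at 1/8 of the reference, 29 with loss at 1/32, 217 with at least 4 losses, 14 with at least 8 losses, 193 with a tumour above 25%, 13 with a tumour above the reference and 28 with at least 2 kept tumours. Leaving out the 4 sarcoids with an L gave 1, since 6 losses are then asked of 8 tumours. Leaving out 1 library gave 33 to 79. For the contrast of sarcoids with an L, DESeq2 called 2 members, and leaving out 1 sarcoid gave 0 to 0 in edgeR. The fitted change of ENSECAG00000003774 turned to -0.92 with voom (adjusted p = 0.918) and lay between -4.82 and 5.26 with 1 sarcoid left out. The cause of these changes was not tested. Under other scalings and thinning, sarcoid 6 kept 60.3% to 68.5% of the members, against 63.0%, and sarcoid 2 kept 46.6% to 52.05%, against 47.95%. With the members found without that tumour, the share fell to 47.1% in sarcoid 6 and to 28.3% in sarcoid 2. In each tumour the share moved by less than 1 SD of the kept shares across the sarcoids. Sarcoids 6 and 2 themselves widen that SD, so falling within it does not show that their shares were stable.

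Title numbers are shared by 5 sarcoids and 5 skin libraries. Only 1 of the 5 sarcoids correlated best with the skin library of its own number, and the labels give no shared animal, so the numbers were not taken as pairs. The coefficient between sarcoid and skin of the same number was 0.486 for number 9. It lay between -0.026 and 0.164 for numbers 2, 3, 6 and 11. What lies behind the value of number 9, whose skin library lost most members, was not tested. With the number as a replicate block, 8 members were called lower in sarcoid over those 10 libraries, and 5 without the block, against 64 in all 24 libraries. Over all genes these counts were 911, 1031 and 3926. The 10 libraries were filtered anew, so their counts are not over the same 14930 genes. They include sarcoids 2, 6 and 11, which kept 35, 46 and 10 members, and skin 9, which lost 61. The rule used this contrast, so nothing is read from the members' counts. With 1 library left out, 63 to 71 members and 3797 to 4085 of all genes were called lower.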
